A study of Homo sapiens with 6 samples.

Results

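The amino acid transporter genes examined here belong to the solute carrier families SLC1, SLC3, SLC6, SLC7, SLC36, SLC38 and SLC43, and were found by gene symbol, by a rule that uses no measured values. By this rule 59 of the 74852 loci in the table were members, and 34 of the 59 had a mean of at least 10 normalized reads over the 6 libraries and entered the test, as did 18849 loci in all. The label is broader than the function of some members, since SLC6A2, SLC6A3 and SLC6A4 carry monoamines, SLC6A8 carries creatine, SLC43A3 carries purine nucleobases and SLC6A16 has no assigned substrate. MDA-MB-231, a human cell line of the triple-negative breast cancer (TNBC) subtype, received 2 rounds of siRNA transfection, and polyadenylated RNA was sequenced. The si-CTRL group (3 libraries) was given a non-targeting pool, and the si-SAM68 group (3 libraries) was given 4 pooled siRNAs that target SAM68. Sam68 is an RNA-binding protein of the STAR family that acts in splicing and is encoded by KHDRBS1. According to the sample labels cells were harvested 24 h after the second transfection, while the methods of the study give another time. All 6 libraries come from 1 cell line, the controls received a full transfection as well, and whether the 3 libraries of a group came from separate cultures is not stated, so that p-values measure only the spread between these libraries. The design asks how depletion of Sam68 alters the transcriptome of these cells.

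Amino acids cross the plasma membrane and the lysosomal membrane through carriers that differ in substrate and in driving force. Sodium-coupled carriers such as the SNAT proteins of the SLC38 family accumulate glutamine and alanine. Those SLC7 light chains bound to the heavy chain CD98 (SLC3A2) exchange one amino acid for another and bring leucine or cystine into the cell. When amino acids are scarce, the kinase GCN2 raises translation of the transcription factor ATF4, which induces transporter and amino acid synthesis genes, and when they are plentiful, sensors at the lysosome activate the kinase complex mTORC1.

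The 6 libraries held between 52625492 and 82568487 reads on all loci. KHDRBS1 was at 15660, 14483 and 14737 normalized reads in the si-CTRL libraries and at 583, 602 and 670 in the si-SAM68 libraries, which is 4.13% of the control mean. Markers of this cell line (VIM, CD44, KRT8, KRT18, EGFR) were at 3138 normalized reads or more in every library, while the luminal and epithelial markers CDH1, EPCAM and ESR1 were at 15.2 or less, PGR was at 0 and GATA3 lay between 331 and 542. Of the markers of other cells, PTPRC, CD3E, PECAM1, CDH5, VWF, COL1A2 and DCN were at 54.4 or less in every library, whereas COL1A1 lay between 138281 and 181387 in both groups, and the loci holding CD68 and PDGFRA each join several genes and could not be read. The endothelial marker CDH5 was lower in every depleted library, at 20.9 to 42.5 in si-CTRL and at 11.2 to 16.1 in si-SAM68 (adjusted p = 0.0756, limma). KRT8 and KRT18 were the markers with an adjusted p under 0.05 (0.0436 and 0.0144, limma with Benjamini-Hochberg adjustment), and both were higher in si-SAM68, at 124% and 127% of the control mean. One locus of ribosomal RNA held 15.1% of all reads of si-SAM68 replicate 2, beside 1.83% to 3.17% elsewhere. The part of these differences in the results that follow was not tested.

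RNA levels differed widely between the carriers. Levels of different genes were compared as normalized reads per kilobase of exon, with exon lengths from GENCODE. In si-CTRL the highest level was that of SLC3A2, the CD98 heavy chain, at 4371 ± 533 (SD, n = 3), followed by SLC38A2, the glutamine and alanine carrier SNAT2, at 4065 ± 286. These levels differed by less than their spread. Then came SLC1A5, the glutamine exchanger ASCT2, at 2443 ± 261, and SLC38A6, a further member of the SLC38 family, at 2403 ± 181, which again lay within their spread of each other. SLC7A5, the leucine carrier LAT1, stood at 1481 ± 277, and SLC38A10 and SLC6A8, the creatine carrier, at 1051 ± 128 and 1010 ± 77.6. The other tested members ran from 758 ± 103 for SLC38A1, the glutamine carrier SNAT1, down to 2.95 ± 1.15 for SLC1A2, the glutamate carrier of astrocytes. In si-SAM68 the level of SLC38A2 was 5782 and that of SLC3A2 4749, so that their order was the other way round.

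**Figure D1:**
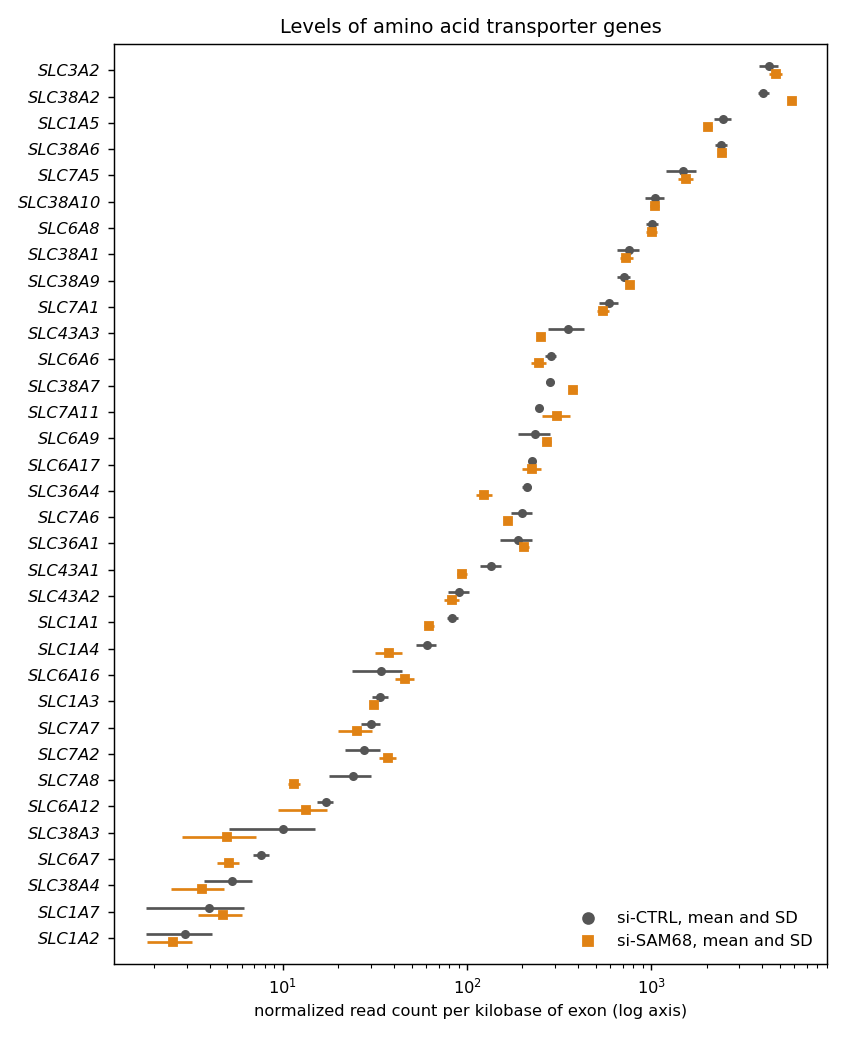
Level of each of the 34 tested amino acid transporter genes in si-CTRL (circles) and si-SAM68 (squares), as normalized read count per kilobase of exon on a log axis, mean with SD of 3 libraries. Levels reach from 2.95 for SLC1A2 to 4371 for SLC3A2 in si-CTRL, and SLC38A2 is the highest in si-SAM68 at 5782.

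Of the 25 members that were not tested, 9 were at 0 in every library, among them SLC6A19, the neutral amino acid carrier of gut and kidney, SLC6A5, the neuronal glycine carrier, and SLC6A14, SLC7A3, SLC7A13 and SLC36A3. A count of 0 allows a level of up to 2.76 to 3.75 normalized reads, the value of 3 reads in each library. The other 16 had a mean below 10, and the highest of them was SLC7A9, the light chain of renal cystine uptake, at 7.50, 5.81 and 5.70 in si-CTRL and 5.04, 21.2 and 4.47 in si-SAM68.

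Upon depletion of Sam68, 6 of the 34 tested members (17.6%) changed, against 10.7% of all loci tested (adjusted p under 0.05 in limma on log2 normalized read count + 1, Benjamini-Hochberg over 18849 loci). SLC38A2 and SLC38A7 were higher, which is 5.88% of the members against 4.47% of all loci. SLC36A4, SLC7A8, SLC1A4 and SLC43A1 were lower, which is 11.8% of the members against 6.23% of all loci. By the thresholds of the study, an unadjusted p no greater than 0.05 with a change of 1.5-fold or more, 3 members (8.82%) passed against 7.67% of all loci. These thresholds were applied to the limma fit, in which 1445 loci passed. The study's own list of regulated genes, from another analysis, is shorter. All 3 were lower (SLC36A4, SLC7A8 and SLC1A4), where 4.83% of all loci passed downwards and 2.83% upwards. The libraries of the groups did not overlap for 12 members (35.3%), against 33.9% of all loci, which is close to the background for both directions together. By direction, 3 members were higher and 9 lower, beside 3135 loci higher and 3260 lower among the 18849 tested. The log2 fold change was above 0 for 12 members and below 0 for 22, with a median of -0.10 beside 0.005 over all loci tested. Of the 6 genes, SLC38A2 overlaps another tested locus, an unnamed one with a mean of 57.4 normalized reads in si-CTRL, and the others overlap none. Among the other members, SLC7A7, SLC6A6, SLC7A6 and SLC6A9 overlap named genes and their values are uncertain. So is the value of SLC38A4, at 21.0 in si-CTRL, which overlaps an unnamed tested locus with a mean of 184. SLC6A16, at 108, overlaps an unnamed locus at 37.7, and SLC1A5, SLC7A5 and SLC7A1 overlap unnamed loci at 71.4 or less. SLC7A11 also overlaps a named gene, SLC7A11-AS1, with a mean of 27.2 normalized reads in si-CTRL. In bulk RNA, less RNA of a gene in each cell and fewer cells that express it cannot be told apart.

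Leaving out any of the 3 si-SAM68 libraries lowered the count of members with an adjusted p under 0.05 to 3, of 4.90%, 4.29% and 3.32% of all loci for replicates 1, 2 and 3, and without si-CTRL replicate 2 the count by the thresholds of the study was 5. SLC38A2 and SLC36A4 kept an adjusted p under 0.05 under all 17 alternative settings.

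**Figure D2:**
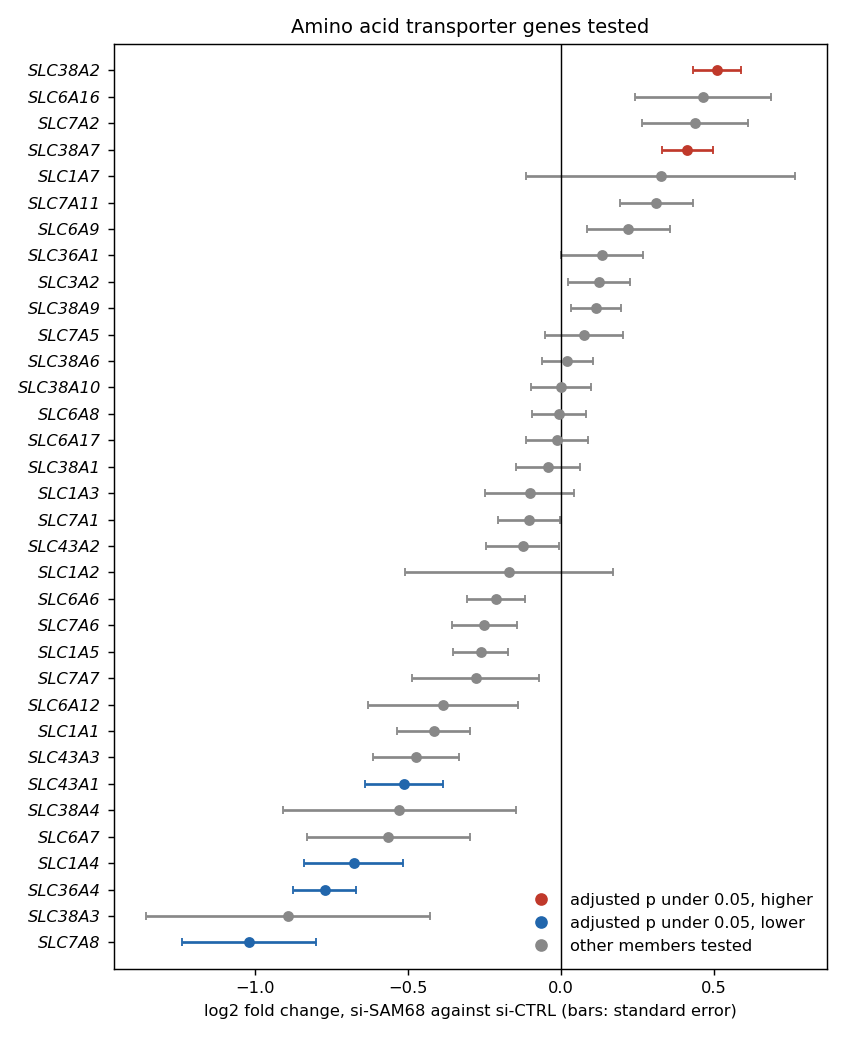
Log2 fold change (si-SAM68 against si-CTRL) of the 34 tested amino acid transporter genes with the standard error from limma, 3 libraries per group. SLC38A2 (0.51) and SLC38A7 (0.41) are coloured as higher and SLC43A1 (-0.51), SLC1A4 (-0.68), SLC36A4 (-0.77) and SLC7A8 (-1.02) as lower, and the remaining 28 had an adjusted p of 0.05 or more.

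The SNAT carriers of the SLC38 family held both of the genes that rose, among 8 of 11 members tested. These 2 genes are 25% of the 8, beside 4.47% of all loci called higher. The log2 fold change was above 0 for 4 of the 8 and below 0 for 4. SLC38A2 (chr12:46751971-46766645, hg19) encodes SNAT2, the sodium-coupled carrier of system A that cells raise when amino acids run short or when they shrink. Its normalized read count was 18709, 20996 and 21340 in si-CTRL and 27541, 30073 and 29220 in si-SAM68. Every depleted library lay above every control, and si-CTRL replicate 1 was the lowest of all. The mean went from 20348 ± 1430 to 28945 ± 1288 (SD, n = 3), which is 142% of the control, with a log2 fold change of 0.51 (SE 0.079, limma, adjusted p = 0.00455). SLC38A2 also was the largest item of the family sum, taking 20.3%, 23.5% and 23.9% of all normalized reads on the 59 members in si-CTRL and 28.9%, 29.2% and 30.5% in si-SAM68. The sum itself was 91971, 89270 and 89205 in si-CTRL and 95232, 102968 and 95722 in si-SAM68, the highest of them in the library with the large share of ribosomal RNA.

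SLC38A7 (chr16:58699013-58718681, hg19) encodes SNAT7, which releases glutamine and asparagine from the lysosome. It was at 1384, 1492 and 1521 normalized reads in si-CTRL and at 1960, 2045 and 1848 in si-SAM68, again without overlap. The mean was 133% of the control, with a log2 fold change of 0.41 (SE 0.084, limma, adjusted p = 0.0149). Leaving out si-SAM68 replicates 1 or 2 gave adjusted p-values of 0.0548 and 0.0844, and limma eBayes without a trend gave 0.0538.

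The other SNAT genes did not pass the test. SLC38A1, whose product SNAT1 shares substrates with SNAT2, was at 8174, 6627 and 6412 normalized reads in si-CTRL and at 6208, 7264 and 7046 in si-SAM68, with overlapping groups and a log2 fold change of -0.04 (SE 0.106, limma, adjusted p = 0.835). The ratio of SLC38A2 to SLC38A1 reads was accordingly 2.29, 3.17 and 3.33 in the controls and 4.44, 4.14 and 4.15 in the depleted libraries, which do not overlap. SLC38A9, the lysosomal arginine sensor of mTORC1, was at 2707, 2325 and 2415 in si-CTRL and at 2647, 2719 and 2678 in si-SAM68, where the groups overlap (log2 fold change 0.11, SE 0.083, limma, adjusted p = 0.411). SLC38A6 was at 4419, 4983 and 5103 in si-CTRL and at 4622, 4952 and 5115 in si-SAM68, within the same range. SLC38A10 was at 5426, 4251 and 4821 in si-CTRL and at 5041, 4897 and 4498 in si-SAM68, likewise within one range. The log2 fold changes were 0.02 for SLC38A6 and -0.00 for SLC38A10. SLC38A3 and SLC38A4 had means of 29.8 and 21.0 normalized reads in si-CTRL, where the spread of single libraries was nearly as wide as the difference between groups.

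SLC36A4 showed the fall with the smallest adjusted p among the members. It lies at chr11:92877337-92931141 (hg19) and encodes PAT4, a carrier of the proton-coupled family with high affinity for proline and tryptophan that has been placed in mTORC1 activation. Its normalized read count was 1336, 1236 and 1397 in si-CTRL and 687, 813 and 828 in si-SAM68. No depleted library came near a control, and the mean of 776 ± 77.4 was 58.7% of the control mean of 1323 ± 81.1 (SD, n = 3). The log2 fold change was -0.77 (SE 0.103, limma, adjusted p = 0.00219). The related SLC36A1, the lysosomal PAT1, was at 1015 to 1484 in si-CTRL and at 1221 to 1386 in si-SAM68, and SLC36A2 and SLC36A3 had too few reads to be tested.

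Of the SLC7 light chains, 5 of 8 were tested and 1 fell. SLC7A8 (chr14:23594506-23652869, hg19) encodes LAT2, an exchanger of small and large neutral amino acids. It was at 141, 83.3 and 115 normalized reads in si-CTRL and at 53.4, 58.9 and 50.3 in si-SAM68. The controls were spread widely, but the lowest of them was still above the highest depleted library. The mean was 47.9% of the control, with a log2 fold change of -1.02 (SE 0.218, limma, adjusted p = 0.0181). The adjusted p was 0.0563 without si-CTRL replicate 3, and 0.0640 and 0.0877 without si-SAM68 replicates 1 and 3.

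LAT1, the abundant light chain of these cells, and the common heavy chain did not follow SLC7A8. SLC7A5 was at 8171, 6544 and 5666 normalized reads in si-CTRL and at 7330, 7589 and 6362 in si-SAM68 (log2 fold change 0.07, SE 0.128, limma, adjusted p = 0.751), at a locus that also holds MIR6775. SLC3A2 was at 10059, 11903 and 12837 in si-CTRL and at 11871, 13750 and 12190 in si-SAM68 (log2 fold change 0.12, SE 0.102, limma, adjusted p = 0.469). The groups overlapped for both genes, so that no difference beyond the spread of the libraries was detectable. Per kilobase, SLC7A8 stood at 24.1 ± 6.17 in si-CTRL beside 1481 ± 277 for SLC7A5.

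SLC7A11 encodes xCT, which takes up cystine in exchange for glutamate and thereby feeds glutathione synthesis. It was at 2413, 2338 and 2367 normalized reads in si-CTRL and at 2406, 3412 and 3108 in si-SAM68. The controls were nearly equal, si-SAM68 replicate 1 lay among them, and the other depleted libraries lay above. The log2 fold change was 0.31 (SE 0.120, limma, adjusted p = 0.129), and 0.46 with an adjusted p of 0.0292 without si-SAM68 replicate 1. The cationic carrier SLC7A1 (CAT1), which brings in arginine and lysine, was at 4809, 4418 and 3804 in si-CTRL and at 3881, 4401 and 3813 in si-SAM68, with overlap (log2 fold change -0.10, SE 0.102, limma, adjusted p = 0.550).

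The small neutral exchangers of the SLC1 family were both lower in every depleted library, and 1 of the 2 passed the test. SLC1A4 (chr2:65215579-65250997, hg19) encodes ASCT1, which exchanges serine, alanine, cysteine and threonine. It was at 320, 277 and 251 normalized reads in si-CTRL and at 195, 193 and 143 in si-SAM68. The groups did not overlap, and si-SAM68 replicate 3 was the lowest. The mean was 62.7% of the control, with a log2 fold change of -0.68 (SE 0.161, limma, adjusted p = 0.0274). The adjusted p was 0.0514 without si-CTRL replicate 2, and 0.0560, 0.0551 and 0.108 without si-SAM68 replicates 1, 2 and 3. With limma eBayes without a trend it was 0.0703.

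SLC1A5 encodes ASCT2, a main entry route of glutamine in cancer cells. It was at 9143, 7702 and 7579 normalized reads in si-CTRL and at 7072, 6832 and 6391 in si-SAM68. The highest depleted library was below the lowest control, but the log2 fold change of -0.26 (SE 0.090) had an adjusted p of 0.0936 in limma. The ratio of SLC1A5 to SLC1A4 reads was 28.6, 27.8 and 30.2 in si-CTRL and 36.2, 35.4 and 44.7 in si-SAM68. Among the glutamate and aspartate carriers of the same family, SLC1A1 (EAAT3) was at 289 to 333 in si-CTRL and at 217 to 243 in si-SAM68 without overlap (log2 fold change -0.42, limma, adjusted p = 0.0533), and SLC1A2, SLC1A3 and SLC1A7 overlapped between the groups.

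All 3 members of the SLC43 family were tested and SLC43A1 fell. SLC43A1 (chr11:57252004-57283192, hg19) encodes LAT3, which carries leucine and other large neutral amino acids without a heavy chain. It was at 417, 347 and 330 normalized reads in si-CTRL and at 271, 247 and 245 in si-SAM68. Every depleted library was below every control, with si-CTRL replicate 1 the highest. The mean was 69.7% of the control, with a log2 fold change of -0.51 (SE 0.127, limma, adjusted p = 0.0323). The adjusted p was 0.0528 without si-CTRL replicate 2, and 0.0662, 0.111 and 0.125 without si-SAM68 replicates 1, 2 and 3. SLC43A1 also did not pass when no expression filter was used, or with limma eBayes without a trend. The neighbouring SLC43A3, counted on a locus it shares with PRG2, was at 852 to 1272 in si-CTRL and at 702 to 765 in si-SAM68 (log2 fold change -0.47, limma, adjusted p = 0.0600), and SLC43A2, the LAT4 gene, overlapped between the groups.

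**Figure D3:**
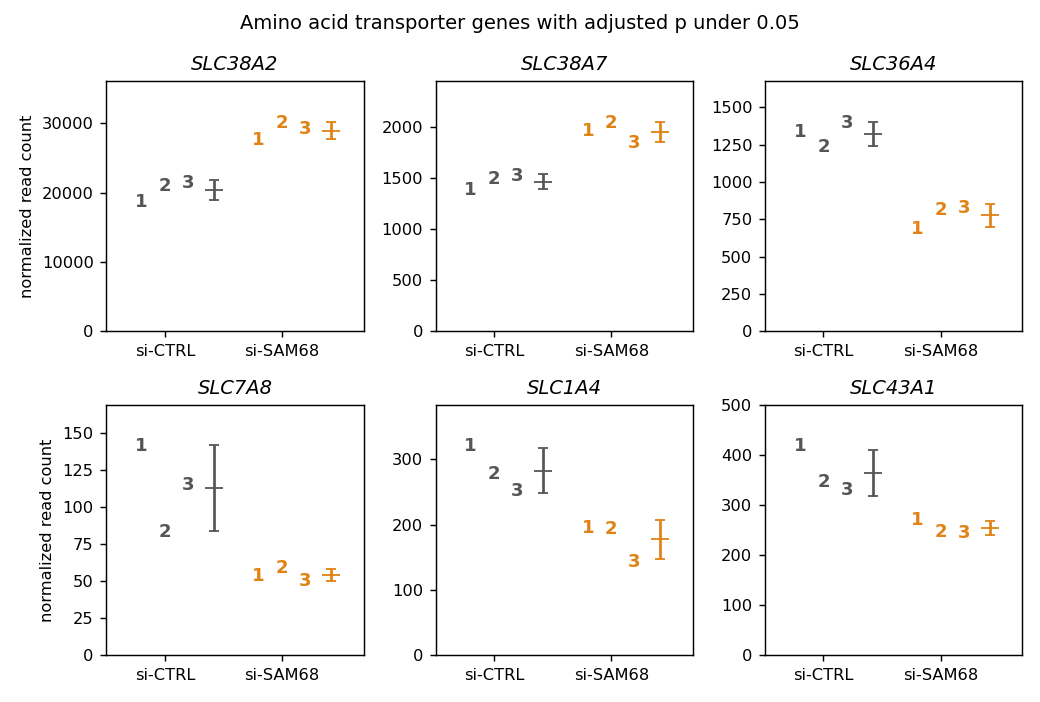
Normalized read count of the 6 amino acid transporter genes with an adjusted p under 0.05, with the replicate number of each library as the plotting symbol and the mean with SD of 3 libraries beside it. In each panel the si-CTRL and si-SAM68 libraries do not overlap, from SLC38A2 at 18709 to 30073 down to SLC7A8 at 50.3 to 141.

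None of the 7 tested members of the SLC6 family passed the test. SLC6A8, the creatine carrier and the highest of them, was at 3616, 4216 and 3979 normalized reads in si-CTRL and at 4183, 3915 and 3652 in si-SAM68, with a log2 fold change of -0.01. SLC6A6, the taurine carrier, was at 1850 to 2106 in si-CTRL and at 1546 to 1858 in si-SAM68 (log2 fold change -0.21, limma, adjusted p = 0.184), on a locus that overlaps other genes. The remaining 12 of the family's 19 members, among them the carriers of dopamine, serotonin and noradrenaline, had too few reads to be tested.

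Genes that respond to or serve amino acid supply were described from 4 further lists. These lists were chosen with earlier results of these data known, so their shares beside those of all loci are descriptions only. In the list of amino acid response and synthesis genes, 10 of 26 tested (38.5%) were lower and none higher, beside 6.23% and 4.47% of all loci, and the median log2 fold change was -0.24. The groups did not overlap for 14 of the 26 (53.8%), all of them lower. Of the 18849 loci tested, 3260 were lower without overlap and 3135 higher, together 33.9%. With a library left out, the count was 7 without si-CTRL replicate 2 (8.45% of all loci called), of which 1 was higher, and 6 without si-CTRL replicate 3 (5.85%), all lower. It was 5 without si-SAM68 replicate 1 (4.90%) or 2 (4.29%) and 3 without si-SAM68 replicate 3 (3.32%), all lower, and eBayes without a trend gave 4 (4.77%), all lower.

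The gene of the list with the largest change was MTHFD2, which encodes an enzyme of mitochondrial folate metabolism. It was at 10592, 10627 and 10655 normalized reads in si-CTRL and at 5276, 5534 and 5237 in si-SAM68, 50.3% of the control. The libraries within a group differed little beside that gap (log2 fold change -0.99, SE 0.068, limma, adjusted p = 0.000107). ALDH1L2, a further mitochondrial folate enzyme, fell by 0.87 on the log2 scale (adjusted p = 0.0238, limma), the lipoprotein receptor gene VLDLR fell by 0.78 (adjusted p = 0.00356), and the locus of the cystathionine synthase genes CBS and CBSL fell by 0.69 (adjusted p = 0.00306). ASNS, which makes asparagine, and PHGDH, which opens serine synthesis, fell by 0.33 and 0.38, and the stress response genes CEBPB, CEBPG, TRIB3 and EIF4EBP1 fell by 0.61, 0.45, 0.46 and 0.38. ATF4 itself, which is controlled largely at translation, was at 29457, 26201 and 26885 in si-CTRL and at 28070, 27948 and 27051 in si-SAM68, with overlapping groups and a log2 fold change of 0.01 (SE 0.074, limma, adjusted p = 0.944).

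**Figure D4:**
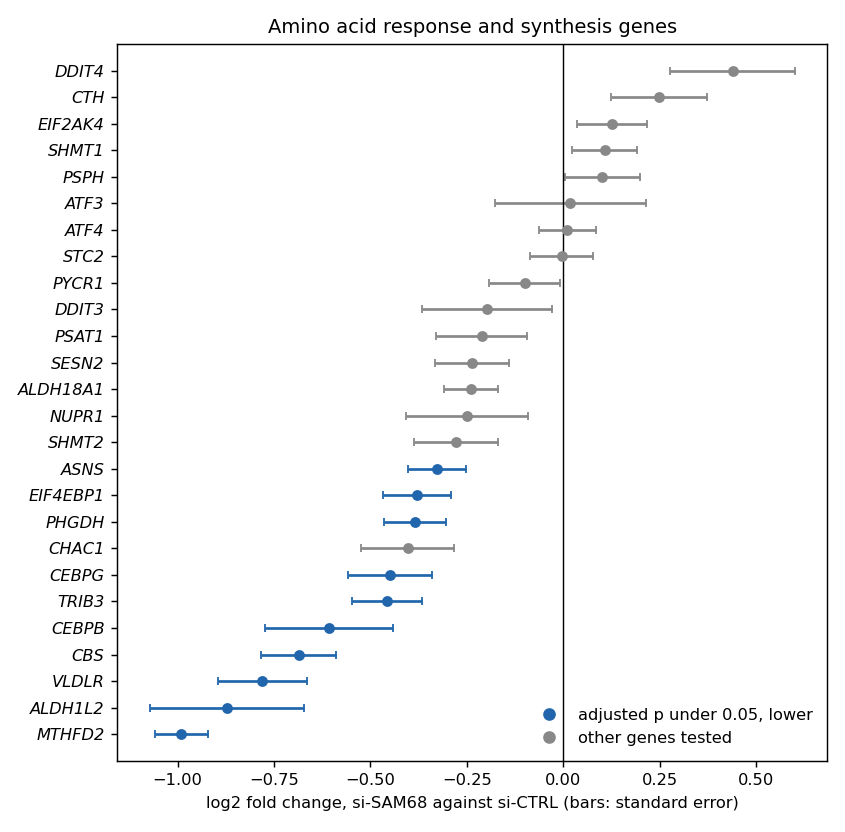
Log2 fold change (si-SAM68 against si-CTRL) of the 26 tested amino acid response and synthesis genes with the standard error from limma, 3 libraries per group. The 10 coloured genes, from ASNS (-0.33) to MTHFD2 (-0.99), had an adjusted p under 0.05 and were all lower, while ATF4 lies at 0.01.

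Of the genes of amino acid sensing by mTORC1, 2 of 33 were higher and 3 lower (6.06% and 9.09%), beside 4.47% and 6.23% of all loci, which is near the background. RPTOR, which encodes the scaffold Raptor that recruits substrates to mTORC1, was at 4267, 4085 and 3969 normalized reads in si-CTRL and at 2063, 2079 and 1824 in si-SAM68. All depleted libraries were far below the controls, at 48.4% of their mean (log2 fold change -1.05, SE 0.083, limma, adjusted p = 0.000186). RRAGD, a Rag GTPase that docks mTORC1 at the lysosome, fell by 0.64 (adjusted p = 0.0437, limma), and the locus joining FNIP1 with RAPGEF6 fell by 0.30 (adjusted p = 0.0455). SESN1, a leucine-binding inhibitor of the pathway, was higher by 0.55 (adjusted p = 0.0190, limma), as was the S-adenosylmethionine sensor gene BMT2, also named SAMTOR, by 0.64 (adjusted p = 0.0430). In the list of glutamine, branched-chain and glutathione metabolism 2 of 23 (8.70%) were lower and none higher, below the 10.7% of all loci called in either direction and beside 6.23% called lower. They were GLUL, which makes glutamine (-0.49, limma, adjusted p = 0.0184), and GSS of glutathione synthesis (-0.34, adjusted p = 0.0234).

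Of the amino acid carriers outside the 7 families, 8 of 12 were tested and SLC17A5 was higher. It encodes sialin, which exports sialic acid from the lysosome and also carries acidic amino acids. It was at 1101, 1214 and 1211 normalized reads in si-CTRL and at 1813, 1892 and 1970 in si-SAM68, without overlap (log2 fold change 0.69, SE 0.085, limma, adjusted p = 0.00147). MYC, a transcription factor known to drive SLC1A5 and SLC7A5, was at 7621, 5055 and 5034 in si-CTRL and at 4192, 4272 and 4080 in si-SAM68. All depleted libraries were below the controls, of which replicate 1 stood apart, and the log2 fold change was -0.47 (SE 0.144, limma, adjusted p = 0.0654).

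Promoters were read from RefSeq sequences (GRCh38.p14) that reach from 250 bases before each transcription start to 50 bases from it, and 44 of the 59 members had such a window, as had 27 of the 34 tested. The core of the C/EBP-ATF response element, the letters TGATGNAA on either strand, which ATF4 is known to bind with C/EBP proteins, stood in windows of 6 of the 27 tested members (22.2%) and of 2.82% of all tested genes with a window. The sequences are shown because this share is above that of the tested genes. Each is written in the direction of the gene, with the match in capitals and 11 bases on either side where the window allows, and they cover the following places:
SLC1A4, chr2:64989381-64989410, plus strand: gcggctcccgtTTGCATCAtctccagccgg
SLC1A5, chr19:46784893-46784922, minus strand: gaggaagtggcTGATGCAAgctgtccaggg
SLC1A3, chr5:36596357-36596386, plus strand: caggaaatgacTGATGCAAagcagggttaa
SLC38A1, chr12:46266502-46266531, minus strand: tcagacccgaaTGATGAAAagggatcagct
SLC7A1, chr13:29595663-29595692, minus strand: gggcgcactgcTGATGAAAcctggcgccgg
SLC3A2, chr11:62881725-62881748, plus strand: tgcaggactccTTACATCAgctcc

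The SLC1A4 and SLC3A2 matches read TGATGNAA on the opposite strand, and the SLC1A4 match began 7 bases before the start. Among the 6 genes only SLC1A4 had an adjusted p under 0.05, with the fall of 0.68 given above. The E-box CACGTG, a palindrome, stood in windows of 9 of the 27 tested members (33.3%) against 12.3% of tested genes, including SLC38A7, SLC7A8 and SLC43A1. The antioxidant response element core TGACNNNGC, on either strand, stood in windows of 7 members (25.9%) against 19.2%. These shares are per gene, and tested members had more windows per gene, 48 for 27 genes beside 16066 for 11113. Per window the share of the antioxidant core was 14.58% against 14.43%, so that it was near the background. The E-box share was 18.75% against 9.16%, and that of the C/EBP-ATF core 12.5% against 2.07%. No matches of the 3 motifs overlapped one another, and none of the 3 was found in the windows of SLC38A2 and SLC36A4. Sequence outside the windows, such as introns, was not read, so these genes may hold matches elsewhere. A match of letters is a description of the window and says nothing of binding.

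The siRNAs themselves can act on other transcripts through the seed, which spans bases 2 to 8 of the guide. The longest 3′UTR that GENCODE lists for each gene was read. A match to a seed of the si-SAM68 pool stood in 13 of the 34 tested members (38.2%), against 29.0% of 13259 genes. The median log2 fold change was -0.17 with a match and -0.01 without. These medians, and those given below for the si-CTRL pool, cover the tested members only. Medians over all genes were not computed, and 3′UTR length was not taken into account. Of the 6 genes with an adjusted p under 0.05, SLC1A4 alone held a match to the si-SAM68 seeds. The guide and the site, which lies at chr2:65023157-65023177 (GRCh38, plus strand), are printed with the seed and its match in capitals, because this is the one gene of the 6 that holds a match:
si-SAM68 guide: uAUCAGCAcucgcucuuuc
SLC1A4 site: agcatgtTGCTGATactcttc

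The part of this match in the fall of SLC1A4 was not tested. SLC36A4, SLC7A8 and SLC43A1, which also fell, held no match to the si-SAM68 seeds in that 3′UTR, and neither did SLC38A2 and SLC38A7. For the si-CTRL pool the share was 19 of 34 members (55.9%) against 55.2% of genes, and the median log2 fold change was -0.01 with a match and -0.39 without. SLC38A2, SLC38A7, SLC36A4 and SLC1A4 held a match to the si-CTRL seeds, so that both of the genes that rose and 2 of the 4 that fell are among them.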

How the data were processed

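The 6 libraries of polyadenylated RNA were grouped by the sample labels. The submitters' processing notes name FastQC, STAR 2.4.0, SAMtools, Picard, DESeq2 and hg19. The table deposited by the authors holds a signal, namely reads per FAST DB locus scaled by DESeq2 size factors. The strand setting of the counting is not given in the sources used here, so overlapping genes and paralogs may share reads, and 841 tested loci join several genes. In each library 100% of values were whole multiples of 1 step (tolerance 0.01), which recovers the read numbers. For si-SAM68 replicate 1 this step lay so near 1 that this could not be checked independently.

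limma 3.58.1 (R 4.3.3, eBayes with trend) was run on log2(value + 1) for loci with a mean of at least 10, without a replicate term. P-values were adjusted by Benjamini-Hochberg across 18849 loci. The members and lists were chosen with earlier results of these data known. Values are given for members past a threshold, the 10 of highest mean, and SLC7A5, SLC7A11, SLC3A2, SLC1A5, SLC38A1, SLC38A2, SLC7A1 and SLC38A9, with KHDRBS1, MYC and ATF4 added. In the related lists, genes with an adjusted p under 0.05 are named. SLC7A9, SLC36A1, SLC1A1, SLC43A3 and SLC6A6, and the untested or overlapping genes named beside them, were chosen after their values were seen. Deviations from the group means correlated by 0.105, 0.231 and 0.125 for libraries whose titles share a replicate number, and by -0.125 to 0.007 otherwise. The deviations within a group cancel out at each locus, so these correlations are not independent of each other. The titles state no pairing, and whether the numbers pair the libraries was not tested.

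On recovered reads edgeR 4.0.16 gave 2026 loci an adjusted p under 0.05 and DESeq2 1.42.0 gave 2811. Coordinates of loci are of hg19, and those of sequences of GRCh38. The programs were tested on simulated counts. With 3 libraries per group an exact permutation test of 1 value cannot go below p = 0.1, and depth was 52625492 to 82568487 reads. Counts of 0 and their limits cover counting error only.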

Additional observations from a re-analysis of the deposited data

How the results depend on the processing

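Results were recomputed under 17 alternatives, namely no filter, a minimum mean of 50, pseudocounts of 0.1 and 5, TMM and quantile scaling, eBayes without a trend or with a robust one, the replicate block, each library left out, and edgeR and DESeq2 on recovered reads. The directions of the 6 called members held in all of them. Without a trend, 3 members and 7 of the 90 related genes had an adjusted p under 0.05 instead of 6 and 18, and 899 loci instead of 2017. With one library left out, the counts ran from 3 to 8 members, from 5 to 26 related genes, and from 2 to 5 members by the thresholds of the study. With the replicate block as a pairing, 6 members (the same 6 genes) and 17 related genes had an adjusted p under 0.05, and 4 members passed the thresholds, SLC38A3 being added. The causes were not tested. The low levels of SLC7A8, SLC38A3 and SLC1A7 limit their precision.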
